A study of Mus musculus with 8 samples.

Results

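Most mitochondrial proteins are encoded in the nucleus, and the 35 genes described here encode the machinery that brings them in, folds them and degrades them. They were taken by name from the 55414 rows of the expression table: every Timm and Tomm gene with a number in its symbol, and *Hspd1*, *Hspe1*, *Hspa9*, *Trap1*, *Clpp*, *Clpx*, *Lonp1*, *Pmpca*, *Pmpcb* and *Grpel1*. The rule uses gene names only. RNA was measured by RNA-seq in cultured B16F10 cells, a mouse melanoma line, in 8 libraries forming 4 groups of 2. WT cells and CypD KO cells were kept at 21% oxygen for 24 h. CypD KO cells carried a CRISPR/Cas9 deletion in *Ppif*, the gene of cyclophilin D (CypD), and were stably transfected clones selected in puromycin. Control cells held an empty pcDNA vector by stable transfection. They and CypD OE cells, stably transfected with pcDNA carrying CypD, were kept at 1% oxygen for 24 h, both after selection in G418. How many clones stand behind a library, and whether the libraries of a group came from separate cultures, was not given in the sources used here. The p-values therefore measure only the spread between these libraries, which may be technical.

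Precursor proteins cross the outer mitochondrial membrane through the TOM complex. Those with a cleavable presequence then pass the inner membrane through TIM23, pulled into the matrix by a motor built on the mitochondrial Hsp70, and lose the presequence to the matrix processing peptidase. Metabolite carriers instead are escorted by the small TIM chaperones across the intermembrane space and inserted by TIM22. In the matrix, the chaperonin formed by Hsp60 and Hsp10 folds many of the imported proteins, and the Lon and ClpXP proteases remove damaged ones. CypD is itself a matrix protein, a prolyl isomerase that regulates the permeability transition pore.

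Expression was given as TPM, the abundance of a gene's transcripts per length, scaled to the same total in every library. From the steps between low values, about 25700000 to 29900000 fragments per library fell on genes. Differences were taken on the log2(TPM + 1) scale, which understates those of low genes, and were tested with limma, with the standard error (SE) of each, in the 13526 genes that reached 1 TPM in 2 or more libraries. An adjusted p under 0.05 was the threshold for a call. A permutation of 2 libraries against 2 cannot give an exact p below 0.333, so the tests rest on a spread shared across groups and genes. All 7 melanocyte markers were at 1 TPM or more in every group, and leukocyte, endothelial and epithelial marker lists summed to at most 1.2 TPM in any library. Fibroblast markers summed to 34.0 to 36.9 TPM in CypD KO against 15.4 to 17.7 TPM in WT, with *Dcn* and *Thy1* at 0 in all groups. That sum followed *Postn*, at 8.04 and 8.07 TPM in WT and 34.8 and 31.2 TPM in CypD KO, while *Col1a2* went the other way, at 9.03 and 6.87 TPM against 1.09 and 2.17 TPM, both called. Melanocyte markers summed to 12433 to 12587 TPM in CypD KO and 15665 to 15755 TPM in WT, and to 13586 to 13758 TPM in CypD OE and 20446 to 20984 TPM in Control. Of their 7 genes 5 were called lower in CypD KO, whereas *Tyr* was called higher (37.4 and 41.25 TPM in WT, 167 and 147 TPM in CypD KO) and *Mitf* was not called. The part of these markers in the results below was not tested. In bulk RNA, fewer cells of a kind and less RNA per cell cannot be told apart.

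*Ppif* (ENSMUSG00000021868, chromosome 14 of GRCm39, 25694522 to 25707332) served to check the labels. In WT it was at 50.7 and 49.99 TPM, in CypD KO at 10.4 and 12.1, in Control at 44.6 and 42.3, and in the CypD OE libraries at 50.3 and 49.3 TPM. In both CypD KO libraries *Ppif* RNA was thus lower, by 2.07 on the log2 scale (SE 0.07, limma adjusted p = 3.81e-06). Part of the RNA remained, and its level does not show the deletion itself. The difference of the libraries labelled CypD OE from Control was slight and missed the threshold (0.19 on the log2 scale, SE 0.07, limma adjusted p = 0.0794), though it passed when either CypD KO library was left out (adjusted p = 0.0325 and 0.033). In the RNA measured here, each direction drawn from those libraries therefore rests on their label. The paper reports protein evidence that these data do not hold: western blots of overexpressed CypD in the stable cells and of its loss in the knockout. It also reports a T7E1 assay of the *Ppif* deletion.

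Of the 35 genes, 33 passed the filter on low values. *Tomm20l*, a relative of the receptor *Tomm20*, was listed at 0 in all 8 libraries, and *Timm8a2*, a relative of *Timm8a1*, was at 0 in 7 libraries and at 0.13 TPM in 1 Control library. The tested genes were abundant, with medians of group means between 79.7 and 80.9 TPM in the 4 groups, lowest for *Timm17b* (15.0 to 18.8 TPM) and highest for *Hspd1* (1263 to 2451 TPM). *Hspd1* and *Hspe1* alone held 53.1% of the summed TPM of the 35 genes in WT, 40.6% in CypD KO, 48.7% in Control and 48.9% in CypD OE. The sums themselves were 6899, 4833, 5656 and 5719 TPM. Fragments were estimated from the length of each gene's canonical transcript, and would be fewer where shorter transcripts prevail. By that estimate counting error was small at this depth. The fewest fragments of a tested gene were 585 for *Timm17b*, a counting error of 4.1% in that library, and 30571 for *Hspd1*, or 0.6%. The *Timm17b* libraries differed by more than that, at 22.0 and 15.6 TPM in WT. Libraries of a group differed for these genes by a median of 0.05 to 0.07 on the log2 scale and by at most 0.54.

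In CypD KO cells, 16 of the 33 genes tested were called lower than in WT cells, 3 were called higher and 14 did not pass the test. The Hsp60 and Hsp10 chaperonin genes had the lowest log2 fold changes, while the protease gene *Lonp1*, *Tomm7* of the TOM complex and the co-chaperone gene *Tomm34* were higher. Over all genes tested, 18.4% were called lower and 30.1% higher in that comparison. Fold changes on the log2 scale had a median of -0.20 for the 33 genes and 0.09 for all genes. Without *Hspd1* and *Hspe1*, 14 of 31 were lower and the median was -0.19. When libraries were rescaled by median of ratios, which brought the median of all genes to -0.01, 22 of the 33 were called lower and 2 higher, beside 25.7% lower and 23.7% higher of all genes.

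Between the libraries labelled CypD OE and Control, calls were divided: 7 of the 33 genes were higher, 6 lower and 20 not called, where 19% of all genes were called higher and 18.3% lower. On the log2 scale the median was 0.03, and 0.00 over all genes. *Lonp1*, *Tomm7*, *Tomm6*, *Timm8b*, *Timm10* and *Hspe1* were lower, and *Timm44*, *Timm8a1*, *Tomm70a*, *Tomm5*, *Hspa9*, *Timm29* and *Hspd1* higher. Without the second CypD OE library only 4 genes were called higher, the calls of *Timm44*, *Timm29* and *Tomm5* being lost. Control cells at 1% oxygen differed from WT cells at 21% in 15 of the 33 genes, with 12 lower and 3 higher, against 12.1% lower and 12.1% higher of all genes, and a median of -0.17 against 0.01. Oxygen, vector and selection differ together between these groups and cannot be told apart. This comparison shares its Control libraries with one of the other comparisons and its WT libraries with the other, so values are only set side by side.

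**Figure D1:**
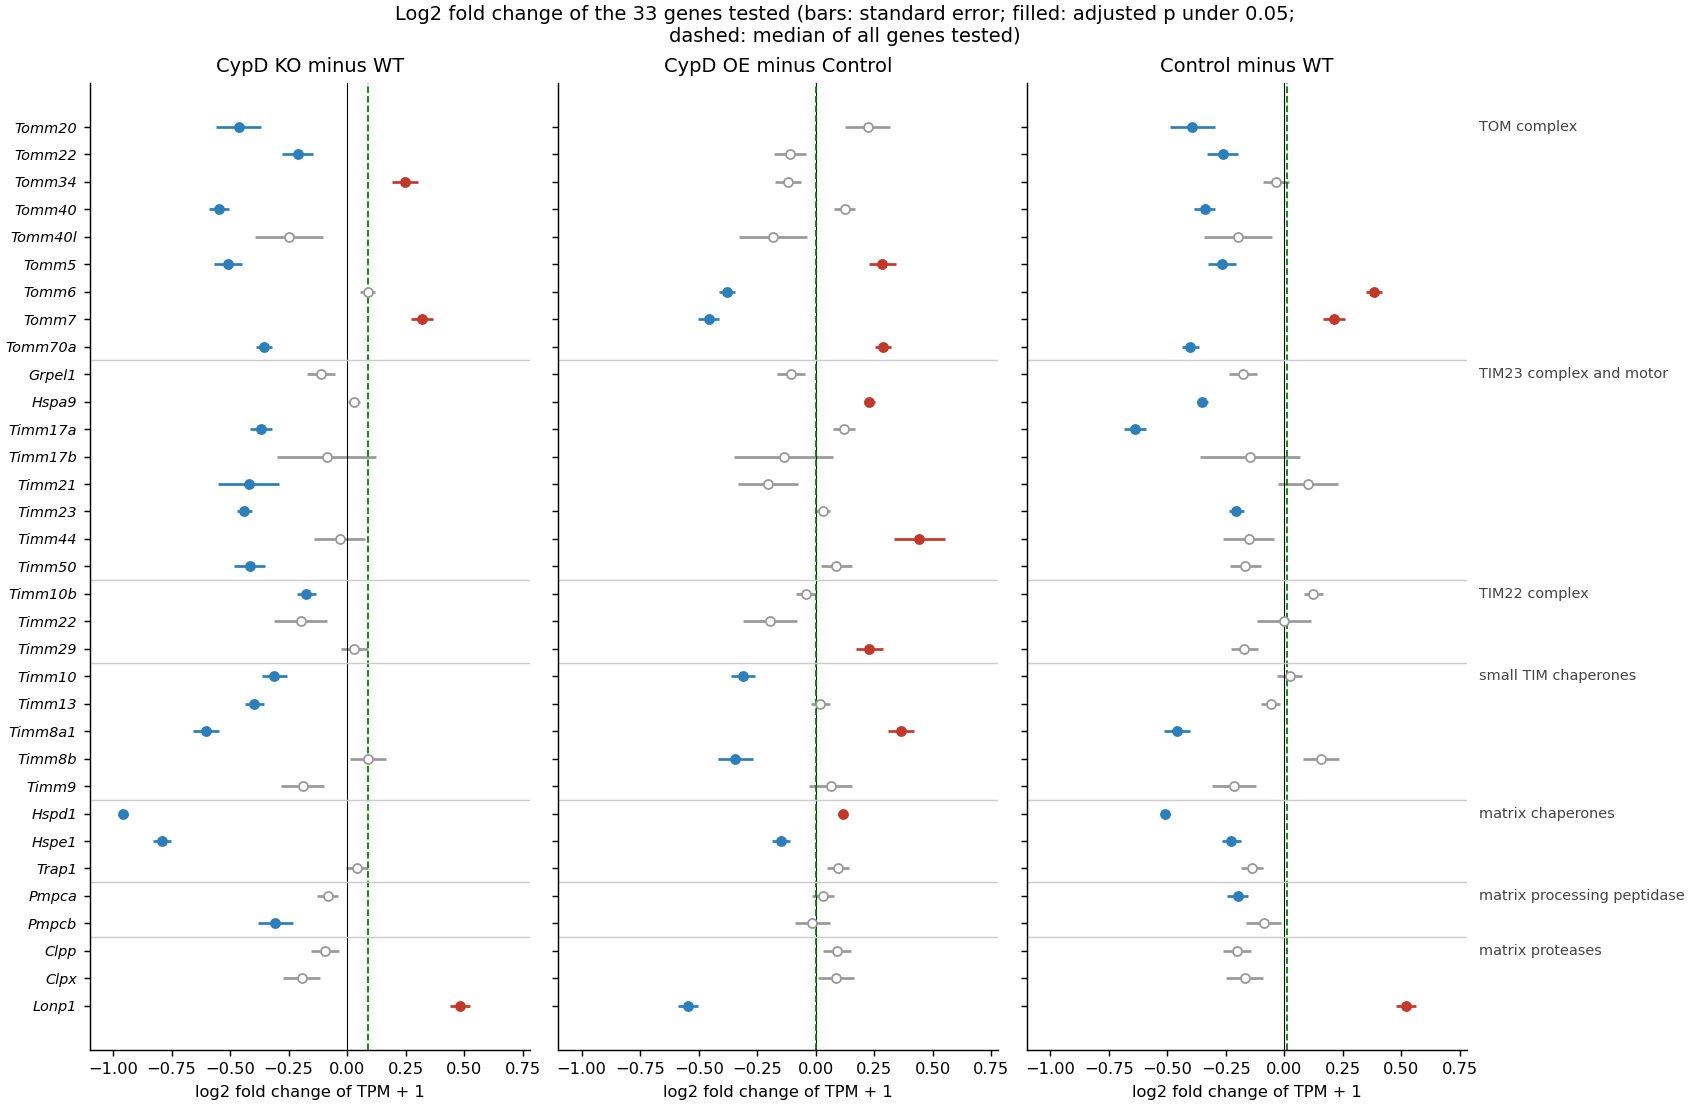
Log2 fold change of TPM + 1 for the 33 genes tested, grouped by role, in panels for CypD KO minus WT (left), CypD OE minus Control (middle) and Control minus WT (right), with bars for the SE, filled points for an adjusted p under 0.05 (blue lower, red higher), a solid line at 0 and a dashed line at the median of all genes tested. Hspd1 and Hspe1 stand farthest to the left in the CypD KO panel, at -0.96 and -0.79, and Lonp1 is filled red, blue and red in the 3 panels.

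The matrix chaperonin genes showed the largest differences of the 33 in CypD KO minus WT, but not in the other comparisons. *Hspd1* (ENSMUSG00000025980, chromosome 1, 55116989 to 55171038), which encodes Hsp60, was at 2447 and 2454 TPM in WT, 1262 and 1264 TPM in CypD KO, 1726 and 1716 TPM in Control, and 1878 and 1851 TPM in CypD OE. No groups overlapped, and both CypD KO libraries were the lowest of the 8. Its log2 fold change was -0.96 in CypD KO minus WT (SE 0.02, limma adjusted p = 8.3e-07), 0.12 in CypD OE minus Control (0.02, adjusted p = 0.0042) and -0.51 in Control minus WT (0.02, adjusted p = 1.88e-05). The CypD OE call was lost when limma was run without a trend (adjusted p = 0.0934). *Hspe1* (ENSMUSG00000073676, chromosome 1, 55127260 to 55130476), which encodes the lid Hsp10, was at 1232 and 1187 TPM in WT, 681 and 718 TPM in CypD KO, 1062 and 1006 TPM in Control, and 923 and 943 TPM in CypD OE. It fell by 0.79 on the log2 scale in CypD KO (SE 0.04, limma adjusted p = 1.37e-05). Here the libraries labelled CypD OE lay below Control, unlike for *Hspd1*, with a log2 fold change of -0.15 (SE 0.04, limma adjusted p = 0.0242). That small difference did not pass in 6 of the alternatives, with adjusted p values up to 0.115. In Control minus WT the log2 fold change was -0.23 (0.04, limma adjusted p = 0.00788).

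The ratio of *Hspd1* to *Hspe1* TPM was 1.99 and 2.07 in WT, 1.85 and 1.76 in CypD KO, 1.63 and 1.71 in Control, and 2.03 and 1.96 in CypD OE. It was lowest in the Control libraries, and the WT and CypD OE libraries overlapped. The subunits of the chaperonin thus differed in the same direction in CypD KO and in Control, but by unequal amounts. A copy of *Hspd1* lies elsewhere in the genome, and RSEM divides reads between such copies. This copy, *Hspd1-ps3*, was at 16.9 and 17.5 TPM in WT and 8.14 and 8.15 TPM in CypD KO, so it was small beside its parent gene, whose value carries that uncertainty.

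*Hspd1* and *Hspe1* point away from each other on chromosome 1, with start sites 108 bases apart, and their exons share 143 bases on opposite strands. Their common promoter is printed because these genes had the largest differences in CypD KO. The window runs from 150 bases before to 30 after the *Hspd1* start on the minus strand of GRCm39, chr1:55127154-55127333, and holds the *Hspe1* start as well. Capitals mark overlapping matches to CCGGAAG, the core of ETS factor sites, and GAANNTTC, a form of the heat shock element.
*Hspd1* and *Hspe1*: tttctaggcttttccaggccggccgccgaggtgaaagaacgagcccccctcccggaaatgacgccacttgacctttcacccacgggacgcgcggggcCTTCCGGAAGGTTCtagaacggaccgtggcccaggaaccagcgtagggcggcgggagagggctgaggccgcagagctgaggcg
Promoters of 300 bases, 250 before and 50 after the start, were searched on both strands for 6 motifs. GAANNTTC occurred in those of 4 of the 33 genes tested (*Hspd1*, *Hspe1*, *Timm10b* and *Timm9*) and in 7.4% of 21757 promoters. CCGGAAG occurred in 11 of the 33, in 10.3% of all promoters. For the others the counts were 9 for ACGTG, the core of the HIF-binding element (20.7% of all promoters), 3 for CGCATGCG, the core of the NRF1 site (2.6%), and 1, *Tomm40l*, for TGATGNAA, an ATF4 and CHOP type site (3.8%). These are matches of letters and no measure of binding. The 21757 promoters belong to protein-coding genes whether or not they passed the filter on low values, as the 33 did. The shares are thus no like background, and a difference from them was not tested. The matches of *Hspd1* and *Hspe1* to GAANNTTC and CCGGAAG lie at the same bases and were counted for each gene.

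The other matrix chaperones differed less in CypD KO minus WT. *Hspa9* (ENSMUSG00000024359, chromosome 18, 35070465 to 35087750), the mitochondrial Hsp70 that drives the import motor and folds proteins in the matrix, was at 416 and 418 TPM in WT, 426 and 426 TPM in CypD KO, 329 and 325 TPM in Control, and 386 and 381 TPM in CypD OE. The 1% oxygen groups were below those at 21%, and CypD OE above Control. In CypD KO minus WT its log2 fold change was 0.03 (SE 0.02, limma adjusted p = 0.351), which became -0.08 after rescaling, with an adjusted p of 0.0306. In CypD OE minus Control it rose by 0.23 (SE 0.02, limma adjusted p = 0.000506), and in Control minus WT it fell by 0.35 (0.02, adjusted p = 0.000209). *Trap1* (ENSMUSG00000005981, chromosome 16, 3856215 to 3895716), the mitochondrial relative of Hsp90, was at 62.2 and 61.2 TPM in WT, 66.0 and 61.3 TPM in CypD KO, 56.1 and 55.9 TPM in Control, and 60.5 and 59.4 TPM in CypD OE. It passed the test in none of the comparisons, with limma adjusted p values of 0.494, 0.155 and 0.0778, the last of which fell under the threshold after rescaling.

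Among the proteases, *Lonp1* moved and the Clp genes did not pass the test. *Lonp1* (ENSMUSG00000041168, chromosome 17, 56921291 to 56933980), the ATP-dependent Lon protease that clears oxidised matrix proteins, was at 82.3 and 79.5 TPM in WT, 114 and 113 TPM in CypD KO, 113 and 120 TPM in Control, and 81.2 and 77.9 TPM in CypD OE. The libraries of CypD KO and Control were high and those of WT and CypD OE low, with no overlap between those pairs of groups. The log2 fold change was 0.48 in CypD KO minus WT (SE 0.04, limma adjusted p = 0.000155), -0.54 in CypD OE minus Control (0.04, adjusted p = 0.000164) and 0.52 in Control minus WT (0.04, adjusted p = 0.000444). These calls held in every alternative run. *Lonp1* shares 215 exon bases with *Rpl36* on the opposite strand, a ribosomal protein gene at 1186 to 1404 TPM, and whether fragments were counted by strand was not given in the sources used here. *Clpp*, the proteolytic chamber of ClpXP, was at 58.7 to 72.5 TPM over the 8 libraries and *Clpx*, its unfoldase, at 25.2 to 31.3 TPM. Their log2 fold changes lay between -0.20 and 0.09, and neither was called in any of the 3 comparisons.

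**Figure D2:**
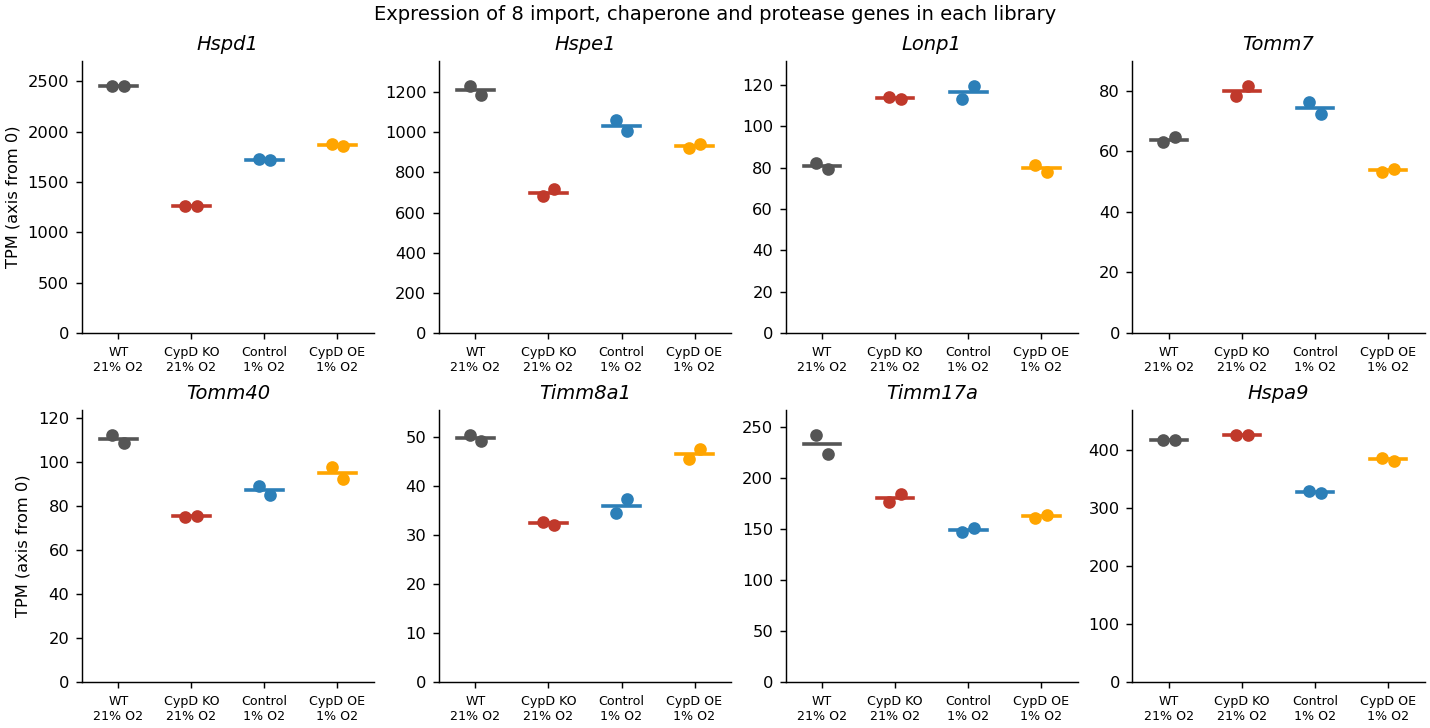
TPM (linear axis from 0) of 8 genes in each of the 8 libraries, with points for libraries and lines for the mean of the 2 libraries of a group. Lonp1 and Tomm7 are high in CypD KO and Control and low in WT and CypD OE, Timm8a1 shows the opposite order, and Hspd1 and Hspe1 are lowest in CypD KO.

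Among the genes of the TOM complex, the pore and receptors were lower in CypD KO while the small subunits diverged. Of 9 genes, *Tomm34* counted with them, 5 were lower, 2 higher and 2 not called, beside 18.4% lower and 30.1% higher of all genes. *Tomm40* (ENSMUSG00000002984, chromosome 7, 19435238 to 19449593), the pore, was at 112 and 109 TPM in WT, 75.0 and 75.3 TPM in CypD KO, 88.9 and 85.1 TPM in Control, and 97.6 and 92.3 TPM in CypD OE. WT was highest, CypD KO lowest, and the 4 groups did not overlap. Its log2 fold change was -0.55 in CypD KO minus WT (SE 0.04, limma adjusted p = 1e-04) and -0.34 in Control minus WT (0.04, adjusted p = 0.00256), and 0.12 in CypD OE minus Control (0.04), which missed the threshold (adjusted p = 0.0655). The receptor *Tomm20* (ENSMUSG00000093904, chromosome 8, 127657416 to 127672690) was at 226 and 223 TPM in WT, 164 and 161 TPM in CypD KO, 163 and 179 TPM in Control, and 179 and 222 TPM in CypD OE. WT lay above CypD KO and Control, while the CypD OE libraries were far apart. It fell by 0.46 in CypD KO (SE 0.10, limma adjusted p = 0.00646) and by 0.39 in Control minus WT (0.10, adjusted p = 0.0259), the latter a call that was lost in 8 of the alternatives.

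*Tomm70a* (ENSMUSG00000022752, chromosome 16, 56941792 to 56977068), the receptor for carrier precursors handed over by cytosolic chaperones, was at 105 and 106 TPM in WT, 83.3 and 81.4 TPM in CypD KO, 78.9 and 80.4 TPM in Control, and 96.8 and 97.9 TPM in CypD OE. WT was highest and CypD OE next, both above CypD KO and Control. The log2 fold changes were -0.35 in CypD KO minus WT (SE 0.04, limma adjusted p = 0.000236), 0.29 in CypD OE minus Control (0.04, adjusted p = 0.001) and -0.40 in Control minus WT (0.04, adjusted p = 0.000499). The central receptor *Tomm22* had log2 fold changes of -0.21 in CypD KO minus WT (limma adjusted p = 0.0383) and -0.26 in Control minus WT (adjusted p = 0.0323), calls that were lost in 7 alternatives each, and was not called in CypD OE minus Control.

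*Tomm5*, *Tomm6* and *Tomm7*, the small subunits around the pore, took different courses. *Tomm5* (ENSMUSG00000078713, chromosome 4, 45105208 to 45108131) was at 139 and 135 TPM in WT, 99.7 and 92.5 TPM in CypD KO, 108 and 120 TPM in Control, and 139 and 139 TPM in CypD OE. It was lowest in CypD KO and Control, with log2 fold changes of -0.51 (SE 0.06, limma adjusted p = 0.000528) in CypD KO minus WT, 0.29 (0.06, adjusted p = 0.00974) in CypD OE minus Control and -0.27 (0.06, adjusted p = 0.0198, lost in 5 alternatives) in Control minus WT. *Tomm7* (ENSMUSG00000028998, chromosome 5, 24043831 to 24049245), also known for stabilising the kinase PINK1 at the outer membrane, was at 62.9 and 64.8 TPM in WT, 78.3 and 81.6 TPM in CypD KO, 76.2 and 72.2 TPM in Control, and 53.2 and 54.2 TPM in CypD OE. The order of its groups was the reverse of that of *Tomm5* in both tested genotype contrasts. Its log2 fold changes were 0.32 (SE 0.05, limma adjusted p = 0.00134), -0.46 (0.05, adjusted p = 0.00043) and, in Control minus WT, 0.21 (0.05, adjusted p = 0.0171, lost in 4 alternatives). *Tomm6* (ENSMUSG00000033475, chromosome 17, 47968416 to 47999311) was at 124 and 126 TPM in WT, 132 and 133 TPM in CypD KO, 164 and 163 TPM in Control, and 123 and 128 TPM in CypD OE. Only the Control libraries stood well apart, giving log2 fold changes of -0.38 in CypD OE minus Control (SE 0.03, limma adjusted p = 0.000249) and 0.38 in Control minus WT (0.03, adjusted p = 0.000499), against 0.09 in CypD KO minus WT (adjusted p = 0.0671), which became -0.03 after rescaling. *Tomm34*, a cytosolic co-chaperone of precursors rather than a subunit of the complex, had a log2 fold change of 0.25 in CypD KO minus WT (limma adjusted p = 0.0102), a call that was lost after rescaling (0.14, adjusted p = 0.102) and without CypD KO replicate 1 (0.21, adjusted p = 0.0608), and was not called in the other comparisons.

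The promoters of *Lonp1*, *Tomm7* and *Timm8a1* are printed because each of these genes was called in opposite directions in CypD KO minus WT and CypD OE minus Control, and each holds CACGTG, the E-box, within 10 bases of its annotated start. CACGTG contains ACGTG. The windows run from 150 bases before to 30 after the start, all on minus strands of GRCm39: chr17:56933902-56934081 for *Lonp1*, chr5:24049130-24049309 for *Tomm7* and chrX:133442620-133442799 for *Timm8a1*. Capitals mark CACGTG, whose first base lies at -8, -1 and -6 from the start.
*Lonp1*: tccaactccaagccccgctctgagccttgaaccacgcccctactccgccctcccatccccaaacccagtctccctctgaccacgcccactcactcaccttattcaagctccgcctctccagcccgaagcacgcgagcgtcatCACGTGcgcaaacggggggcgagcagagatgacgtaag
*Tomm7*: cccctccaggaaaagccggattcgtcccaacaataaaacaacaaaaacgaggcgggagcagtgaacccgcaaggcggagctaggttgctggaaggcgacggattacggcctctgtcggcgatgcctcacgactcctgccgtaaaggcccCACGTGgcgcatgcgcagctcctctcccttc
*Timm8a1*: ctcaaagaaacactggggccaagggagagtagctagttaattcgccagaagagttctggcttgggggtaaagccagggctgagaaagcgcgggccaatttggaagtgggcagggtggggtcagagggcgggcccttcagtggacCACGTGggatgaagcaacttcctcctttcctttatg
CACGTG occurred in the 300-base promoters of 6 of the 33 genes tested and in 7.8% of all 21757, which again include genes that did not pass the filter. The other 3 were *Clpp* and *Timm9*, which were called in no comparison, and *Tomm20*. The genes that held it were called in both directions, since *Lonp1* and *Tomm7* rose in CypD KO where *Timm8a1* and *Tomm20* fell. *Hspd1*, *Tomm5* and *Tomm70a* were likewise called in opposite directions in CypD KO minus WT and CypD OE minus Control, but held no CACGTG. The printed promoters were thus picked by call and motif together.

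In the TIM23 complex and its motor, 4 of 8 genes were lower in CypD KO and none higher, beside the same 18.4% and 30.1%. They were *Timm23*, *Timm21*, *Timm50* and *Timm17a*, all of the membrane part, while *Timm17b* and the motor genes *Hspa9*, *Timm44* and *Grpel1* were not called. *Timm23* (ENSMUSG00000013701, chromosome 14, 31902119 to 31924263), the channel, was at 205 and 206 TPM in WT, 152 and 151 TPM in CypD KO, 176 and 180 TPM in Control, and 178 and 185 TPM in CypD OE. WT was highest, CypD KO lowest, and Control and CypD OE overlapped between them. Its log2 fold change was -0.44 in CypD KO minus WT (SE 0.03, limma adjusted p = 6.49e-05) and -0.21 in Control minus WT (0.03, adjusted p = 0.00491). *Timm17a* (ENSMUSG00000062580, chromosome 1, 135217009 to 135241522), its partner in the membrane, was at 243 and 224 TPM in WT, 177 and 184 TPM in CypD KO, 147 and 152 TPM in Control, and 161 and 164 TPM in CypD OE. Here the Control libraries rather than those of CypD KO were the lowest. The log2 fold change was -0.37 in CypD KO minus WT (SE 0.05, limma adjusted p = 0.000775), -0.64 in Control minus WT (0.05, adjusted p = 0.000271), the largest of the 33 genes in that comparison, and 0.12 in CypD OE minus Control (0.05, adjusted p = 0.0831).

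*Timm50*, the presequence receptor of TIM23, and *Timm21*, which docks it to TOM, had log2 fold changes of -0.42 in CypD KO minus WT, with limma adjusted p values of 0.00196 and 0.0325. The CypD KO libraries differed for *Timm21* (30.4 and 40.4 TPM against 44.8 and 49.9 TPM in WT), and its call was lost in 8 alternatives. *Timm44* (ENSMUSG00000002949, chromosome 8, 4309718 to 4325931), which anchors Hsp70 to the channel, was at 69.0 and 62.6 TPM in WT, 63.6 and 65.1 TPM in CypD KO, 66.6 and 52.3 TPM in Control, and 78.2 and 83.1 TPM in CypD OE. Both CypD OE libraries were above all others, but the Control libraries were far apart. It was called higher in CypD OE minus Control (log2 fold change 0.44, SE 0.11, limma adjusted p = 0.0186), a call lost in 4 alternatives, among them without CypD OE replicate 1 (adjusted p = 0.0563) and without CypD OE replicate 2 (adjusted p = 0.0939). *Grpel1*, the nucleotide exchange factor of mitochondrial Hsp70, lay between 19.7 and 24.9 TPM in all libraries and was called in no comparison.

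The small TIM chaperones and TIM22 handle the carrier route. In CypD KO, 3 of 5 small TIM genes and 1 of 3 TIM22 genes were lower and none higher, few genes to set beside the 18.4% lower of all genes. *Timm8a1* (ENSMUSG00000048007, chromosome X, 133433731 to 133442649), a partner of *Timm13* in an intermembrane space hexamer, was at 50.5 and 49.1 TPM in WT, 32.8 and 32.1 TPM in CypD KO, 34.6 and 37.4 TPM in Control, and 45.6 and 47.6 TPM in CypD OE. CypD KO and Control were low, WT and CypD OE high. The log2 fold changes were -0.60 in CypD KO minus WT (SE 0.06, limma adjusted p = 0.000174), 0.36 in CypD OE minus Control (0.06, adjusted p = 0.0026) and -0.46 in Control minus WT (0.06, adjusted p = 0.00192). *Timm13* fell with it in CypD KO, by 0.40 (0.04, limma adjusted p = 0.000276), but was not called in CypD OE minus Control (0.02, adjusted p = 0.759).

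*Timm8b* (ENSMUSG00000039016, chromosome 9, 50515193 to 50527516), the paralog of *Timm8a1*, was at 185 and 179 TPM in WT, 208 and 180 TPM in CypD KO, 193 and 213 TPM in Control, and 164 and 155 TPM in CypD OE. WT and CypD KO overlapped, and both CypD OE libraries were the lowest. It fell by 0.34 in CypD OE minus Control (SE 0.08, limma adjusted p = 0.0121), a call lost without Control replicate 2 or CypD OE replicate 2, and its log2 fold change in CypD KO minus WT was 0.09 (adjusted p = 0.371). It shares 3461 exon bases on the opposite strand with *Nkapd1*, a gene at 39.8 to 45.3 TPM. *Timm10* (ENSMUSG00000027076, chromosome 2, 84646661 to 84663226), which forms the main carrier-escorting hexamer with *Timm9*, was at 44.7 and 43.1 TPM in WT, 34.4 and 36.1 TPM in CypD KO, 45.2 and 44.1 TPM in Control, and 36.6 and 34.9 TPM in CypD OE. It was low in both CypD KO and CypD OE. The log2 fold change was -0.31 in each of these contrasts (SE 0.05 in each), with limma adjusted p values of 0.00276 and 0.00397, and 0.02 in Control minus WT (adjusted p = 0.795). *Timm9* itself was called in no comparison. Of TIM22, *Timm10b*, the small TIM bound to it, fell by 0.17 in CypD KO (limma adjusted p = 0.0118, lost without WT replicate 1 or CypD KO replicate 2), *Timm29*, a structural subunit, was higher by 0.23 in CypD OE minus Control (adjusted p = 0.0204, lost in 4 alternatives), and the channel *Timm22* was called in no comparison.

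The matrix processing peptidase, which cuts presequences, was represented by its subunits *Pmpca* and *Pmpcb*. *Pmpcb*, which carries the catalytic site, was at 192 and 184 TPM in WT and 147 and 157 TPM in CypD KO, without overlap, a log2 fold change of -0.31 (SE 0.08, limma adjusted p = 0.0131) that was not past the threshold without WT replicate 1 or without CypD KO replicate 1. *Pmpca* was not called there (-0.08, adjusted p = 0.177) except after rescaling (-0.20, adjusted p = 0.00933), and was called lower in Control minus WT (-0.20, limma adjusted p = 0.0216, lost in 5 alternatives). Neither was called in CypD OE minus Control.

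Paralogs differed in their balance. *Timm8a1* made up 21.5% and 21.5% of the summed TPM of *Timm8a1* and *Timm8b* in WT, 13.6% and 15.1% in CypD KO, 15.2% and 14.9% in Control, and 21.7% and 23.5% in CypD OE, so the share was lower in CypD KO and Control than in WT and CypD OE with no overlap. *Timm17a* held 89.1% to 93.5% of its pair with *Timm17b* in every library. Control (89.1% and 90.8%) lay below WT (91.7% and 93.5%) and CypD OE (91.3% and 91.8%), while CypD KO (89.3% and 92.8%) overlapped each of these groups. *Timm17b* (ENSMUSG00000031158, chromosome X, 7765574 to 7776168), the other TIM23 partner, was at 22.0 and 15.6 TPM in WT, 21.1 and 14.2 TPM in CypD KO, 17.9 and 15.4 TPM in Control, and 15.3 and 14.8 TPM in CypD OE. It differed more between libraries of WT and of CypD KO than between those groups, and its log2 fold change in CypD KO minus WT, -0.09 (SE 0.21, limma adjusted p = 0.764), took either sign when a library was left out. *Tomm40* held 73.8% to 83.2% of its pair with *Tomm40l*. *Tomm40l* (ENSMUSG00000005674, chromosome 1, 171043578 to 171050277), a pore paralog, was at 28.7 and 26.9 TPM in WT, 20.2 and 26.7 TPM in CypD KO, 22.1 and 26.2 TPM in Control, and 19.7 and 22.6 TPM in CypD OE. It was called in no comparison, but passed in CypD KO minus WT without CypD KO replicate 2 (log2 fold change -0.44, limma adjusted p = 0.049).

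**Figure D3:**
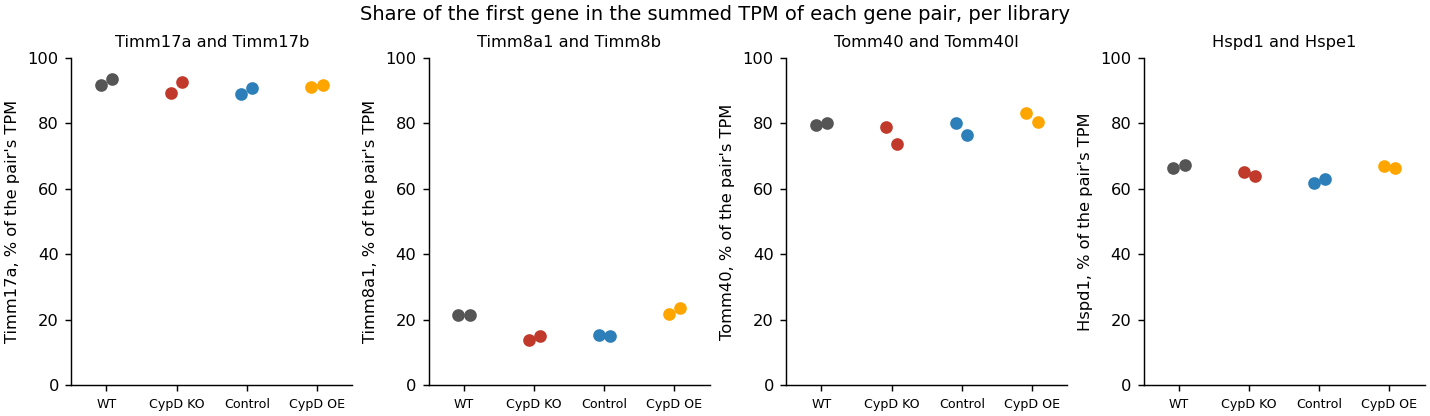
Share in percent of the first gene in the summed TPM of 4 gene pairs (linear axis from 0 to 100), with 1 point for each library. The share of Timm8a1 lies between 13.6% and 15.2% in CypD KO and Control and between 21.5% and 23.5% in WT and CypD OE, whereas Timm17a stays between 89.1% and 93.5%.

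CypD KO minus WT and CypD OE minus Control compare no library in common, so their calls can be crossed. The spread of each gene was estimated from all 8 libraries for both, so the calls are not independent. Over all genes tested, 5.13% were lower in CypD KO and higher in CypD OE, 7.61% higher in CypD KO and lower in CypD OE, 4% lower in both and 6.57% higher in both. Called in CypD KO alone were 9.25% lower and 15.9% higher, in CypD OE alone 6.73% lower and 7.35% higher, and 37.5% in neither. Lower in CypD KO and higher in CypD OE were 4 genes, the chaperonin gene *Hspd1*, the small TIM *Timm8a1* and the TOM genes *Tomm5* and *Tomm70a*. *Lonp1* and *Tomm7* were higher in CypD KO and lower in CypD OE. *Hspe1* and *Timm10* were lower in both, and 0 genes were higher in both. Of the other genes lower in CypD KO, 10 were not called in CypD OE, among them *Tomm40*, *Tomm20*, *Timm23* and *Timm17a*. *Tomm34* was higher in CypD KO alone by the calls, and the difference between the contrasts was not tested. *Timm44*, *Hspa9* and *Timm29* were called higher and *Timm8b* and *Tomm6* lower in CypD OE without a call in CypD KO. The 9 genes called in neither were *Clpp*, *Clpx*, *Grpel1*, *Pmpca*, *Timm17b*, *Timm22*, *Timm9*, *Tomm40l* and *Trap1*.

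Beside the 35 genes, 39 tested genes of 6 lists cover the rest of the pathway. In CypD KO 12 of them were lower and 3 higher, with a median on the log2 scale of -0.05, beside 18.4% lower, 30.1% higher and 0.09 over all genes. In CypD OE minus Control 14 were lower and 10 higher, a median of -0.15, beside 18.3%, 19% and 0.00. In Control minus WT 12 were lower and 5 higher, a median of -0.13, beside 12.1%, 12.1% and 0.01. In the outer membrane list, 4 of 7 genes were lower in CypD KO, among them *Dnajc11*, a partner of the sorting and assembly machinery (-0.37, limma adjusted p = 0.00177), *Mtx1*, a metaxin of that machinery (-0.26, adjusted p = 0.0158), and its channel *Samm50* (-0.19, adjusted p = 0.0108). In CypD OE minus Control the insertase gene *Mtch2* (-0.56, limma adjusted p = 0.00107) and *Mtx2* (-0.45, adjusted p = 0.00478) were lower and *Mtx3* was higher (0.76, adjusted p = 0.0049). In CypD KO the call of *Mtx1* was lost without WT replicate 2 or either CypD KO library (adjusted p up to 0.0802), and that of *Samm50* without WT replicate 2 or CypD KO replicate 2 (up to 0.0608).

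Among partners of TIM23 and TIM22, *Romo1*, a small partner of TIM23, was higher in CypD KO (0.44, limma adjusted p = 0.00382) and lower in CypD OE (-0.29, adjusted p = 0.0284), while *Grpel2*, the second exchange factor, was lower in CypD KO (-0.25, adjusted p = 0.0253) and higher in CypD OE (0.24, adjusted p = 0.0339). *Agk*, a lipid kinase that is also a TIM22 subunit, rose in CypD OE (0.51, limma adjusted p = 0.00351), and *Timmdc1*, a complex I assembly factor, fell (-0.41, adjusted p = 0.0126). *Chchd4*, the oxidoreductase that folds intermembrane space proteins, was not called in CypD KO, rose in CypD OE (0.53, limma adjusted p = 0.000623) and was lower in Control minus WT (-0.55, adjusted p = 0.00105). The largest difference of the 39 genes in CypD KO belonged to *Oxa1l*, the inner membrane insertase, at 29.4 and 33.4 TPM in WT and 19.9 and 19.7 TPM in CypD KO. It fell by 0.64 (SE 0.07, limma adjusted p = 0.000502) and was higher by 0.40 in CypD OE minus Control (0.07, adjusted p = 0.00575). *Clpb*, a disaggregase of the intermembrane space, was lower in CypD OE (-0.36, limma adjusted p = 0.00909), as was *Dnaja3*, an Hsp70 partner (-0.18, adjusted p = 0.0386). In CypD OE that of *Dnaja3* was lost in 10 alternatives (limma adjusted p up to 0.17), that of *Romo1* in 8 (up to 0.134) and that of *Grpel2* in 7 (up to 0.127), settings that leave out 1 library among them for each gene. *Timmdc1* lost its call without Control replicate 1 or CypD OE replicate 2 (up to 0.0661), and *Grpel2* in CypD KO lost its call in 4 alternatives (up to 0.113), without WT replicate 1 or either CypD KO library among them.

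Of 10 inner membrane and intermembrane space protease genes and scaffolds, 4 were lower and 2 higher in CypD KO, beside 18.4% and 30.1% of all genes. The higher ones were proteases, *Oma1*, the stress-activated protease that cleaves *Opa1* (0.55, limma adjusted p = 0.00698), and *Spg7*, a subunit of the m-AAA protease (0.48, adjusted p = 0.0111). The lower ones were the scaffolds *Phb2* (-0.43, limma adjusted p = 0.00012), *Stoml2* (-0.39, adjusted p = 0.000577) and *Phb* (-0.27, adjusted p = 0.006), and the protease subunit *Afg3l2* (-0.21, adjusted p = 0.00899). In CypD OE minus Control 5 were lower and 3 higher, beside 18.3% and 19%. *Htra2*, a protease of the intermembrane space, rose by 0.56 (SE 0.05, limma adjusted p = 0.000284), *Afg3l1* fell by 0.42 (adjusted p = 0.0103) and *Oma1* fell by 0.36 (adjusted p = 0.0429). Of the presequence peptidases, *Pitrm1*, which degrades cleaved presequences, was lower in CypD KO (-0.32, limma adjusted p = 0.0029) and higher in CypD OE (0.22, adjusted p = 0.0198), and *Immp1l* of the inner membrane peptidase was lower in CypD OE (-0.50, adjusted p = 0.00365). Of these lists, the largest differences in Control minus WT beside that of *Chchd4* were those of *Parl*, the rhomboid protease (-0.64, limma adjusted p = 0.021), *Immp1l* (0.44, adjusted p = 0.0102), *Oxa1l* (-0.48, adjusted p = 0.00468) and *Mtx1* (-0.43, adjusted p = 0.00478). In CypD KO the call of *Spg7* was lost without CypD KO replicate 1 (limma adjusted p = 0.0598) and that of *Afg3l2* without CypD KO replicate 2 (0.0506). In CypD OE that of *Oma1* was lost in 10 alternatives (up to 0.189), that of *Afg3l1* without CypD OE replicate 2 (0.0566), and that of *Pitrm1* without any 1 of the 4 libraries compared (up to 0.0999). In Control minus WT, *Parl* was lost in 4 alternatives (up to 0.104), without WT replicate 1 or Control replicate 1 among them, and *Immp1l* without WT replicate 2 or Control replicate 1 (up to 0.0599).

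**Figure D4:**
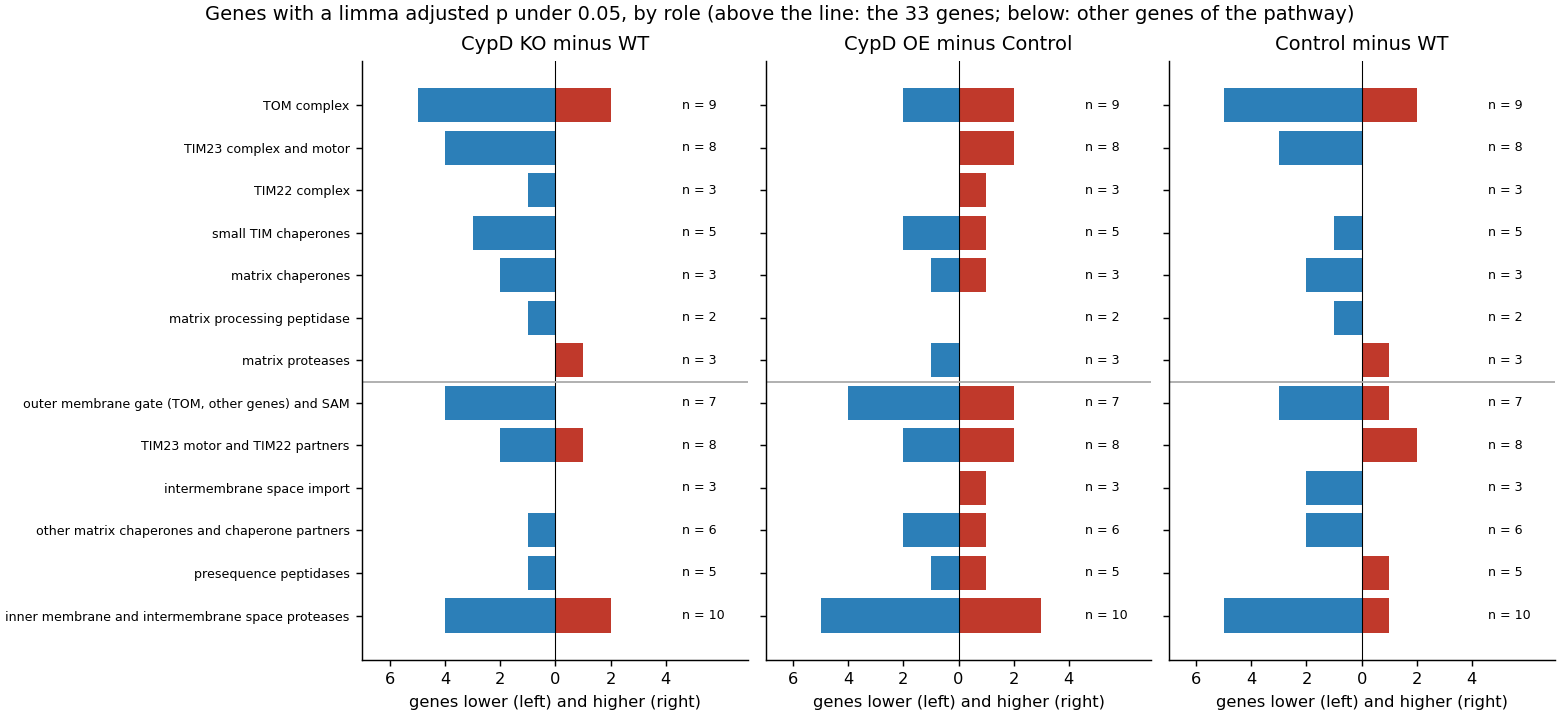
Number of genes with a limma adjusted p under 0.05 in each role, with lower genes drawn to the left in blue and higher genes to the right in red, in the 3 comparisons, and n for the genes tested. Above the grey line are the 33 genes described here and below it the 39 others of the pathway, and in CypD KO the bars to the left outnumber those to the right in all roles but the matrix proteases and intermembrane space import, which has no call.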

How the data were processed

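RNA of 8 libraries of B16F10 cells was sequenced after ribosomal RNA depletion in paired-end reads. The labels name 1 RNA isolation kit for all libraries, and the study's methods another for WT and CypD KO. Per the submitters' processing notes and the methods, the authors used Cutadapt 3.4 to trim, STAR 2.7.8a to align to GRCm39 and RSEM 1.3.1 to estimate expression. The values deposited by the authors are TPM, written to 2 decimals. They hold no counts, so the authors' DESeq2 1.26.0 test was not repeated.

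Depth was estimated from the steps between low values: 83.6% to 86.4% of values of up to 6 fragments were whole within 0.15, where even spacing would give 30%. Genes reaching 1 TPM in 2 or more libraries were tested on log2(TPM + 1), using R 4.3.3 and limma 3.58.1 (lmFit, eBayes with trend), with 1 mean for each of the 4 groups. Tests were two-sided, with Benjamini-Hochberg adjustment over all 13526 genes, and were tested on simulated data. Replicate 1 is the library whose name has no suffix. Promoters follow the canonical transcripts of GRCm39, the build of the files.

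The genes, lists, tests and alternatives were chosen with earlier results of these data known. Values per library are given for the called genes with the largest differences (up to 8, 8 and 6 in the 3 comparisons), for Hspd1, Hspe1, Hspa9, Lonp1, Trap1 and 3 paralog pairs, and for Ppif. From other lists, up to 3 called genes per list and comparison were named, and further genes were named after their values were seen. Alternatives were a pseudocount of 0.1, median-of-ratios rescaling, no filter, a filter of 5 TPM, a replicate block, eBayes without trend, fits of the 4 libraries of a comparison, and leaving out each library. For genes of the other lists and for a few uncalled values these were run after the data were seen.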

Additional observations from a re-analysis of the deposited data

How the results depend on the processing

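Rescaling by median of ratios lowered the median of the 33 genes in CypD KO minus WT to -0.31 on the log2 scale and turned the sign of Trap1 to -0.07, Hspa9 to -0.08, Timm8b to -0.02 and Tomm6 to -0.03 in that comparison. With libraries left out in turn, that median ran from -0.25 to -0.17 and the median in Control minus WT from -0.21 to -0.14, and 4 to 7 genes were called higher in CypD OE minus Control. Likewise the log2 fold change in CypD KO minus WT ran from -0.01 to 0.10 for Trap1, -0.36 to 0.18 for Timm17b and -0.01 to 0.19 for Timm8b, and in Control minus WT from -0.38 to 0.09 for Timm17b and 0 to 0.05 for Timm10, and in CypD OE minus Control from 0 to 0.04 for Timm13, none of them called. The cause was not tested. No called gene of the 33 or of the other lists turned its direction under the settings run.

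In Control minus WT, fitting only the 4 libraries compared left 998 genes higher and 983 lower of all genes, against 1634 and 1635. The same change left 3682 higher and 2222 lower in CypD KO minus WT, against 4066 and 2486. In CypD OE minus Control it left 2140 and 2134, against 2576 and 2481. Why the comparisons lost unequal numbers of calls was not tested. Same-numbered libraries deviated together with correlations of 0.108 (CypD KO and WT), -0.002 (CypD OE and Control) and -0.019 (Control and WT), so the numbers were not taken as pairs, and whether libraries were paired was not given in the sources used here. With the number as a replicate block, 3 genes were higher and 15 lower in CypD KO, 7 and 6 in CypD OE minus Control, and 3 and 12 in Control minus WT. For named genes, lost calls are given beside them. For genes of the other lists the settings were run after seeing the data, and 8 of 33 called genes lost their call in at least 1 setting in CypD KO minus WT, 14 of 37 in CypD OE minus Control and 14 of 30 in Control minus WT. With 2 libraries a group no screen for single deviating libraries was possible, and TPM holds no counts, so differences of a few percent cannot be resolved.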

Other observations

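The cytosolic chaperonin TRiC, which folds actin and tubulin and is related to Hsp60, was lower in CypD KO in 7 of 8 genes and higher in none, with a median log2 fold change of -0.47, beside 18.4% lower of all genes tested. Cct5, at 639 and 636 TPM in WT and 425 and 439 TPM in CypD KO, fell by 0.56 (SE 0.03, limma adjusted p = 2.47e-05), and Tcp1 fell by 0.53 (adjusted p = 2.69e-05). Cct7 was the exception, at 651 and 634 TPM in WT and 647 and 632 TPM in CypD KO. In CypD OE minus Control 3 TRiC genes were higher and 1 lower, beside 19% and 18.3% of all genes. The lower one was again Cct5, at 625 and 650 TPM in Control and 408 and 421 TPM in CypD OE, a log2 fold change of -0.62 (SE 0.03, limma adjusted p = 2.74e-05), while Cct7 rose by 0.22 (adjusted p = 0.00449). In Control minus WT 7 of 8 were lower, beside 12.1% of all genes, with Cct5 the one not called and Cct7 called in all but 4 of the alternatives.

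Of 11 tested cytosolic heat shock genes, 6 were lower and 2 higher in CypD KO (18.4% and 30.1% of all genes), 6 lower and 1 higher in CypD OE minus Control (18.3% and 19%), and 3 lower and 2 higher in Control minus WT (12.1% each). Hsph1, an Hsp110 exchange factor, fell in both CypD KO (-0.68, limma adjusted p = 1.14e-05) and CypD OE (-0.33, adjusted p = 0.000379). Hspa4l, another Hsp110, rose in CypD KO (0.72, limma adjusted p = 0.0027) and fell in CypD OE (-0.80, adjusted p = 0.00258). Hsp90aa1, the inducible Hsp90, fell in CypD OE (-0.76, limma adjusted p = 1.57e-05).

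Of 6 genes of mitochondrial stress signalling, Atf5, a transcription factor of the mitochondrial unfolded protein response, was at 14.5 and 18.0 TPM in WT, 32.9 and 32.4 TPM in CypD KO, 6.64 and 8.73 TPM in Control, and 21.6 and 23.8 TPM in CypD OE. It was lowest in Control and rose in both contrasts, by 0.97 in CypD KO (SE 0.14, limma adjusted p = 0.00143) and 1.46 in CypD OE minus Control (0.14, adjusted p = 0.000377), and fell by 0.99 in Control minus WT (0.14, adjusted p = 0.00353). Ddit3, which encodes CHOP, rose in CypD KO (0.90, limma adjusted p = 0.000365) and fell in CypD OE (-0.53, adjusted p = 0.00534), but a second identifier of that symbol overlaps it and took 0 to 410 TPM, so its level is uncertain. Eif2ak1, an integrated stress response kinase, fell by 0.16 in CypD KO (limma adjusted p = 0.0271), a call lost without any 1 of the 4 libraries compared (adjusted p up to 0.105). Atf4, Hsf1 and Dele1 were called in none of these comparisons.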
